A study of Homo sapiens with 12 samples.

Results

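The genes described here are 9 non-clustered protocadherin genes: PCDH1, PCDH7 and PCDH9 of the delta-1 class, PCDH8, PCDH10, PCDH17, PCDH18 and PCDH19 of the delta-2 class, and the related PCDH20. They are 9 of the 19974 protein-coding genes on chromosomes 1 to 22 and X. They were chosen by gene family and also on measured values, since PCDH9 was known to carry some of the strongest peaks of every protein in the series. The peaks of PCDH9 are therefore given as a description, and no test is made on any member. The data are peak lists from chromatin immunoprecipitation followed by sequencing in wild-type HEK293T cells, an established human embryonic kidney line. Cells were fixed with 1% formaldehyde for 5 min, and paired reads were 150 bp long. Antibodies were directed against INTS13 and INTS11, subunits of the Integrator complex, and against HDGF, ZEB1 and ZNF609, which the study selected as interactors of INTS13; its question was whether they share genomic sites with it. Each of the 5 proteins had 2 lists, and the 2 libraries of input chromatin were not analysed here. All groups came from this 1 untreated cell line. The labels name no separate cultures for the 2 lists of a protein, and their spread may be technical.

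Protocadherins are membrane proteins of the cadherin superfamily that mediate weak contacts between cells, above all in the developing nervous system. Unlike the clustered protocadherins, which stand in tandem arrays, the delta protocadherins are single genes spread over several chromosomes. The delta-1 proteins carry a cytoplasmic site for protein phosphatase 1, and several delta-2 proteins recruit the WAVE complex, which drives actin branching. Of the proteins precipitated, INTS11 is the endonuclease by which Integrator cuts nascent RNA, and INTS13 belongs to another module of the same complex. HDGF is a chromatin protein with a PWWP domain. ZEB1 is a zinc finger repressor that binds E-boxes, and ZNF609 is a zinc finger protein known to associate with Integrator.

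The regions before 3 start sites are shown for the range among the members. That of PCDH9 lay under a peak in 10 of 10 lists, that of PCDH19 in 2 lists and that of PCDH7 in 0 lists. The 100 kb before the PCDH9 start site were covered by peaks over between 62.9% and 97.9%, depending on the list. The 1 Mb on either side of PCDH7 was covered over at most 0.028%. The contrast between these regions thus cannot be told apart from that of their surroundings. The share of all promoters under a peak was not counted. The 250 bases before each start site are shown 5′ to 3′ on the gene's own strand, from RefSeq on GRCh38.p14. Capitals mark E-boxes, CANNTG, a motif that reads the same on both strands. The positions are chr13:67230337-67230586 on the minus strand for PCDH9, chrX:100410274-100410523 on the minus strand for PCDH19 and chr4:30720119-30720368 on the plus strand for PCDH7.
PCDH9: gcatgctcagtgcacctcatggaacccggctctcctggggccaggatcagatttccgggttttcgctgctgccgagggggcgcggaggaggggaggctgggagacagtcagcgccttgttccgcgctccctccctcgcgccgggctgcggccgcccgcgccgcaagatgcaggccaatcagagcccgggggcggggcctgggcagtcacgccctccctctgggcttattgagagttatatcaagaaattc
PCDH19: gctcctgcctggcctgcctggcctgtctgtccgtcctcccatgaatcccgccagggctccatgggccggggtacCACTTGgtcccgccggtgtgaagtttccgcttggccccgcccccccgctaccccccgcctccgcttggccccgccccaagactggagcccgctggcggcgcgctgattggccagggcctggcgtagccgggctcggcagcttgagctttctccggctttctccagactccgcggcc
PCDH7: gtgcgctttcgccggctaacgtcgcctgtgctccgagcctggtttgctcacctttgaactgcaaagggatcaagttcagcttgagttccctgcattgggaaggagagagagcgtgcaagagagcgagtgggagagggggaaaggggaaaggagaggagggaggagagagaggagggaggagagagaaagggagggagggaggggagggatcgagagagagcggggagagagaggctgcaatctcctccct

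Promoter windows were found for 7 of the 9 members, PCDH10 and PCDH20 being the exceptions. The ZEB1 core CAGGTG, or CACCTG on the other strand, is among the sequences that CANNTG covers. It occurred in the window of PCDH1 and in 0 of the other 6, beside 17.5% of 35116 RefSeq promoter windows of the same length. CANNTG occurred in the windows of PCDH1, PCDH17 and PCDH19, beside 61.8% of all windows. The PCDH9 window thus held no E-box, and both ZEB1 lists had a peak over it. In each ZEB1 list, however, peaks covered 92.1% or more of the 100 kb before this start site. The peak over the window is thus not specific to it, and a link to its motifs was not tested. The PCDH9 window had a GC content of 66.8% with 20 CpG dinucleotides, and the PCDH19 window 72.0% with 21. The medians over all windows were 58.0% and 11. The windows of PCDH1, PCDH8 and PCDH17 were each under a peak of INTS13 replicate 1 alone, and those of PCDH7 and PCDH18 were under none. For PCDH1 and PCDH17 the start site of the promoter table lies inside the gene, away from its outer end.

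List length ranged from 26409 peaks over 22.1 Mb, for ZNF609 replicate 2, to 416964 peaks over 351 Mb, for INTS13 replicate 1. The median protein-coding gene was covered over between 0% and 16.7% of its length, depending on the list. A region was called reproducible where peaks of both lists of a protein overlapped by 1 bp or more. Such a region lay within 1 kb of a gene end for 4 of the 9 members with INTS13, beside 63.7% of all protein-coding genes. It did so for 3 members with INTS11, beside 17.4%, and for 1 member each with HDGF, beside 22.2%, with ZEB1, beside 3.78%, and with ZNF609, beside 1.57%. Between the gene ends, 5 members had an INTS13 region, beside 73.2% of genes, and 2 had an INTS11 region, beside 26.0%. There 1 member each had a region of HDGF, beside 38.5% of genes, of ZEB1, beside 6.68%, and of ZNF609, beside 3.66%. The member with regions of all 5 proteins was PCDH9, and it was the only member with a reproducible region of HDGF, ZEB1 or ZNF609. PCDH7, PCDH17, PCDH18 and PCDH20 had no reproducible region of any protein in the gene or at its ends. Since the choice of PCDH9 used these peaks, nothing is read from its share in the counts. Restricting the lists to peaks with a -log10 q of 5 or more, or to the 10000 strongest peaks of each, left fewer members with INTS13 and INTS11. With the 10000 strongest peaks, the count was 1 member for each of the 5 proteins, both at the gene ends and in the gene. The share of all protein-coding genes was not counted with these restricted lists, so the fall has no background beside it.

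**Figure D1:**
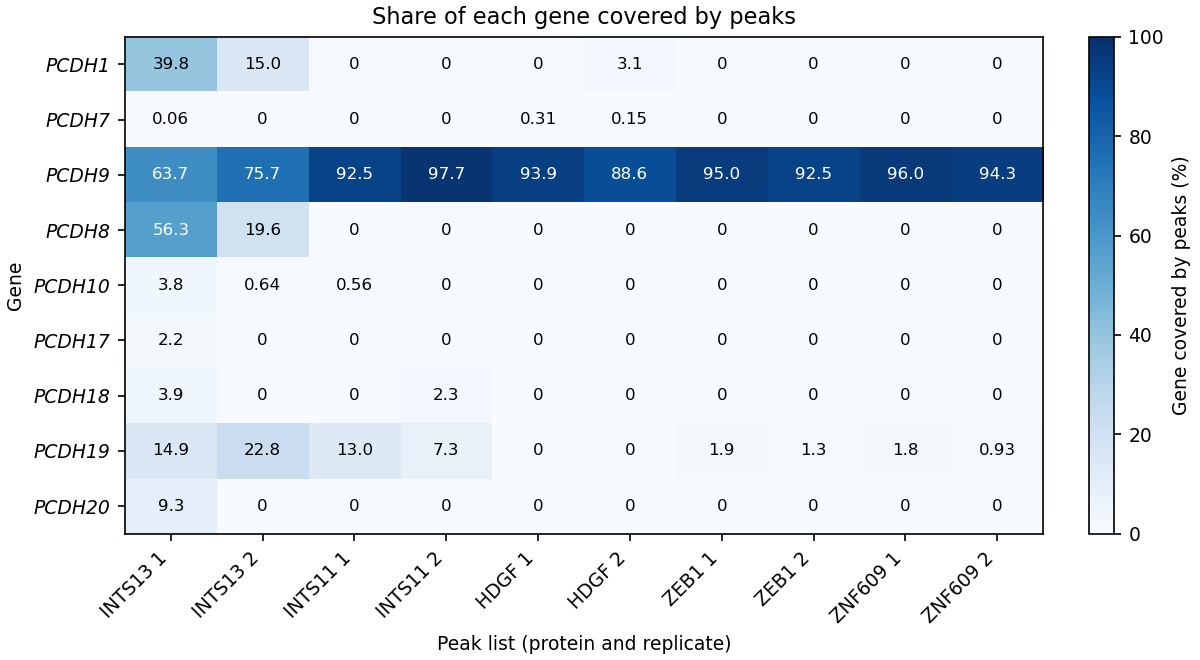
Each cell gives the share of a gene's length, in percent, that was covered by peaks of the list named below it; rows are the 9 genes, columns the 10 lists. The PCDH9 row lies between 63.7% and 97.7%, while 0 fills most cells of the other rows.

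PCDH9, a delta-1 protocadherin of the developing brain and retina, was covered by peaks of every protein over most of its 928 kb (chr13:66302834-67230336, read on the minus strand). Coverage, fold and rank describe calls made by the authors' peak caller; whether the copy number of this locus in HEK293T, or the use of an input in calling, has a part in them was not tested, and they are not given as occupancy. INTS13 peaks covered 63.7% of the gene in replicate 1 and 75.7% in replicate 2. INTS11 peaks covered 92.5% and 97.7%, and HDGF peaks 93.9% and 88.6%. ZEB1 peaks covered 95.03% and 92.5%, and ZNF609 peaks 96.0% and 94.3%. The 2 INTS13 lists were the lowest and did not overlap in this value with the other 8. As means the shares were 69.7% ± 8.46 (SD, n = 2) for INTS13, 91.3% ± 3.78 for HDGF, 93.8% ± 1.80 for ZEB1, 95.1% ± 3.69 for INTS11 and 95.1% ± 1.18 for ZNF609. The ranges of ZEB1 and INTS11 overlapped each other and those of HDGF and ZNF609, while both ZNF609 lists lay above both HDGF lists.

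Few other genes were covered to this extent. Of 19974 protein-coding genes, 5 (0.0250%) had 50% or more of their length under peaks in all 10 lists: PCDH9, TLE4, CSNK1E, GPRIN2 and MRPL55. Of the 3351 genes of 100 kb or more, PCDH9 and TLE4 were the 2 that did (0.0597%). The count of 5 rested on ZNF609: it was 8 without ZNF609 replicate 1 and 24 without ZNF609 replicate 2. It also rested on the minimum share, set after seeing the data: 54 genes had 25% or more, and 1 had 75% or more, which was TLE4 and no longer PCDH9. With peaks of a -log10 q of 5 or more the count was 2. TLE4, a corepressor gene of 155 kb on chromosome 9, was covered over at least 91.6% in each list. In the HDGF, ZEB1 and ZNF609 lists and in INTS11 replicate 2, exactly 1 gene of 100 kb or more was covered over a larger share than PCDH9. In INTS11 replicate 1 there were 3 such genes. In the INTS13 lists there were 76 and 47, so that by this measure PCDH9 stood out least for the protein with the longest lists.

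**Figure D2:**
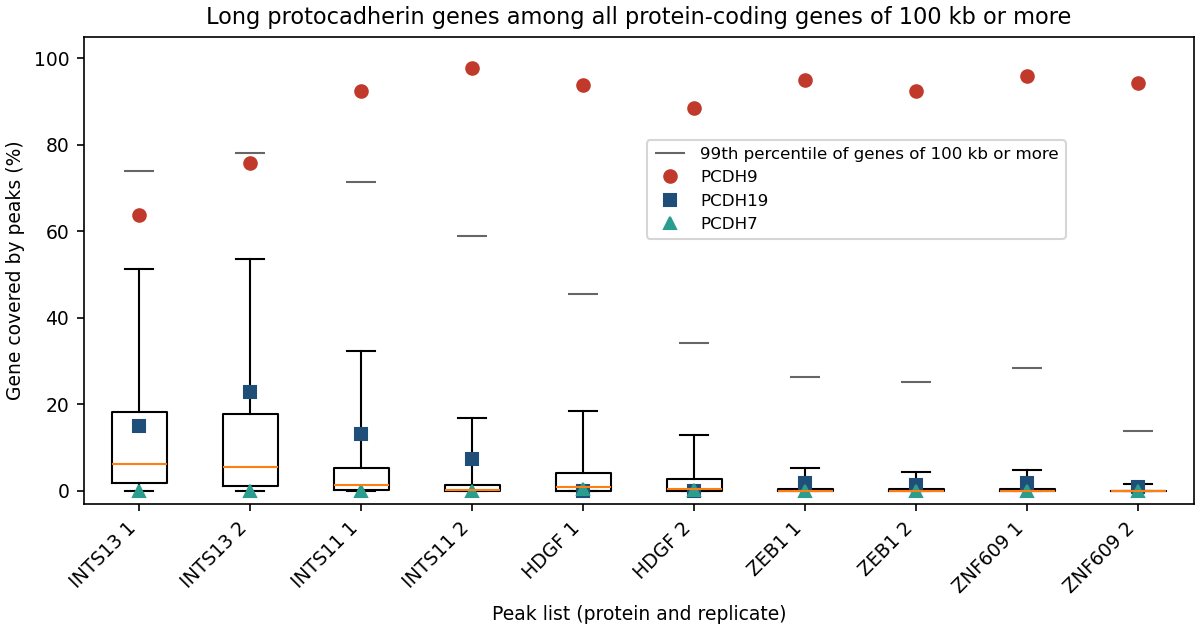
Share of the gene covered by peaks, in percent, for the members PCDH9, PCDH19 and PCDH7 in each of the 10 lists. Boxes give the quartiles and median of the 3351 protein-coding genes of 100 kb or more, whiskers the minimum and the 95th percentile, and grey bars the 99th percentile; PCDH9 lies above the grey bar in 8 lists and below it in the 2 INTS13 lists.

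The number of peaks in PCDH9 ran against their width. INTS13 had 414 and 265 peaks in the gene, with median widths of 1.01 and 1.87 kb. HDGF had 120 and 223, with medians of 4.02 and 2.06 kb. The counts were 82 and 122 for ZEB1, 59 and 95 for ZNF609, and 118 and 32 for INTS11, whose replicate 2 had a median width of 13.5 kb and a widest peak of 129 kb. The list with the fewest peaks therefore covered the largest part of the gene, and the list with the most peaks the smallest. Reproducible regions in the gene numbered 239 for INTS13, 59 for HDGF, 41 for ZEB1, 31 for INTS11 and 22 for ZNF609. The share of the gene covered in both lists of a protein ran nearly the other way, with 60.5% for INTS13, 85.3% for HDGF, 90.1% for ZEB1, 92.3% for INTS11 and 92.2% for ZNF609. The number of regions in PCDH9 therefore gives another order of the proteins than the covered share.

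**Figure D3:**
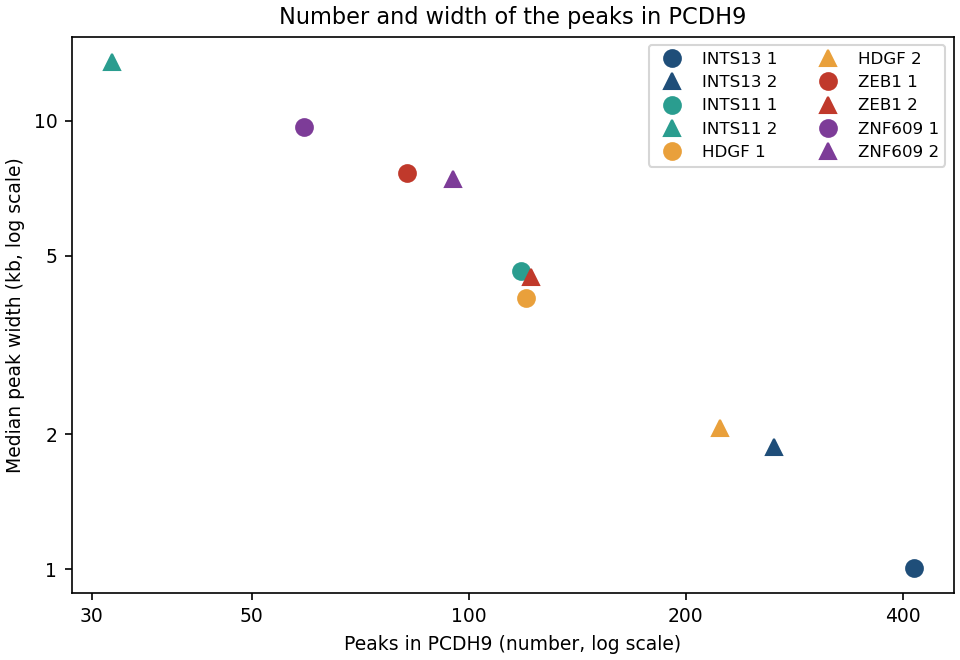
Number of peaks in PCDH9 (horizontal, log scale) and their median width in kb (vertical, log scale), 1 point per list; colours are proteins, circles replicate 1 and triangles replicate 2. The points fall from 32 peaks of 13.5 kb for INTS11 replicate 2 to 414 peaks of 1.01 kb for INTS13 replicate 1.

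PCDH9 held some of the strongest peaks of each list, which is what selected it. The fold of a peak is the authors' ratio of its summit to the background of the caller, and folds were compared only within a list. The highest peak in the gene ranked 26 of 416964 and 38 of 341913 in the INTS13 lists, by -log10 p. It ranked 20 of 195303 and 10 of 106144 for INTS11, and 2 of 147715 and 6 of 114789 for HDGF. For ZEB1 the ranks were 16 of 52336 and 29 of 45291, and for ZNF609 16 of 46187 and 15 of 26409. The peak of rank 2, in HDGF replicate 1, was chr13:66989633-67027017 with a fold of 8.87. Peaks ranked 100 or better, ties included, numbered between 102 and 130 per list, and between 9 and 29 of them lay in PCDH9. Between 93.3% and 100% of the peaks in the gene had a fold above the median of their own list. The gene took between 0.169% and 3.95% of all bases covered by a list, the lowest for INTS13 replicate 1 and the highest for ZNF609 replicate 2.

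The strongest peak in PCDH9 was at a different place in each replicate. For INTS13 it was chr13:66620677-66623907 in replicate 1 and chr13:66715719-66727389 in replicate 2. For ZEB1 it was chr13:66832782-66846380 and chr13:66988159-66990210. For ZNF609 it was chr13:66849652-66867617 and chr13:66603601-66640006, and in no protein did the strongest peaks of the 2 lists overlap. Of the summits in PCDH9, 50.4% of those of INTS13 replicate 1 lay within 500 bp of a summit of replicate 2, and 78.8% in the other direction. Over all peaks of these lists the shares were 40.4% and 48.8%. For ZNF609 the shares in the gene were 12.1% and 7.45%, beside 16.2% and 28.4% over all peaks, and for ZEB1 24.4% and 16.5%, beside 22.2% and 25.7%. For INTS11 they were 9.48% and 35.5%, beside 21.2% and 39.1%, and for HDGF 44.5% and 24.2%, beside 29.0% and 37.3%. Summits in PCDH9 thus lay near one of the replicate more often than summits elsewhere in both INTS13 lists, HDGF replicate 1 and ZEB1 replicate 1, and less often in the other 6 lists. Wide peaks have few summits, which bears on such a share.

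Coverage ran through the whole gene. In 10 equal parts counted from the start site, the mean over the 10 lists lay between 84.4%, in part 6, and 91.9%, in part 2. No part fell below 57.4% in any list. Bases covered in all 10 lists made up 51.2% of PCDH9, those covered in 9 or more 72.2%, and those covered in 5 or more 97.2%. Bases under no peak of any list made up 0.913%, in 8 stretches, of which the longest was 3.30 kb at chr13:66740098-66743400. The parts at the start site and at the 3′ end, with means of 91.4% and 89.0%, lay within the range of the others, and both gene ends were under peaks in 10 of 10 lists.

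The coverage did not begin or end with PCDH9. In bins of 50 kb, the median coverage over the 10 lists was 50% or more from chr13:61750001 to chr13:68400000, with 2 lower bins inside this stretch of 6.65 Mb. The stretch was drawn outward from the bins of PCDH9 until 4 bins in a row had a median under 50%. The stretch reached 4553 kb past the 3′ end of PCDH9 and 1170 kb beyond its start site. It held 3 protein-coding genes, PCDH9 and the uncharacterised LOC112267897 and LOC647264, with 43 long non-coding RNA genes and 20 pseudogenes that are not annotated as transcribed. Outside PCDH9 the stretch was covered over 53.0% and 64.1% by the INTS13 lists, 83.9% and 94.1% by INTS11, 70.4% and 57.0% by HDGF, 89.1% and 85.1% by ZEB1, and 89.3% and 87.4% by ZNF609. Each of these values was below that of PCDH9 in the same list. In the 500 kb before the lower edge the coverage was between 0.723% and 1.57% in every list. In the 500 kb past the upper edge it was between 6.04%, in HDGF replicate 2, and 43.9%, in INTS11 replicate 2. Coverage thus fell less far past the upper edge than below the lower edge in every list. The first peak of 2 kb or more at the lower edge began within the same 11.3 kb in all 10 lists. Coverage was thus higher in PCDH9 than in the rest of the stretch taken as a whole. It was higher still at the lower edge. The first 400 kb, chr13:61750001-62150000, were covered over 79.9% and 88.7% by INTS13, 97.4% and 98.9% by INTS11, and 96.5% and 94.9% by HDGF. ZEB1 covered 98.6% and 97.3% of them, and ZNF609 98.1% and 98.5%. In each of the 10 lists this was above the share of PCDH9. What part of the coverage of PCDH9 belongs to the gene and what part to the stretch cannot be told apart by these lists.

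**Figure D4:**
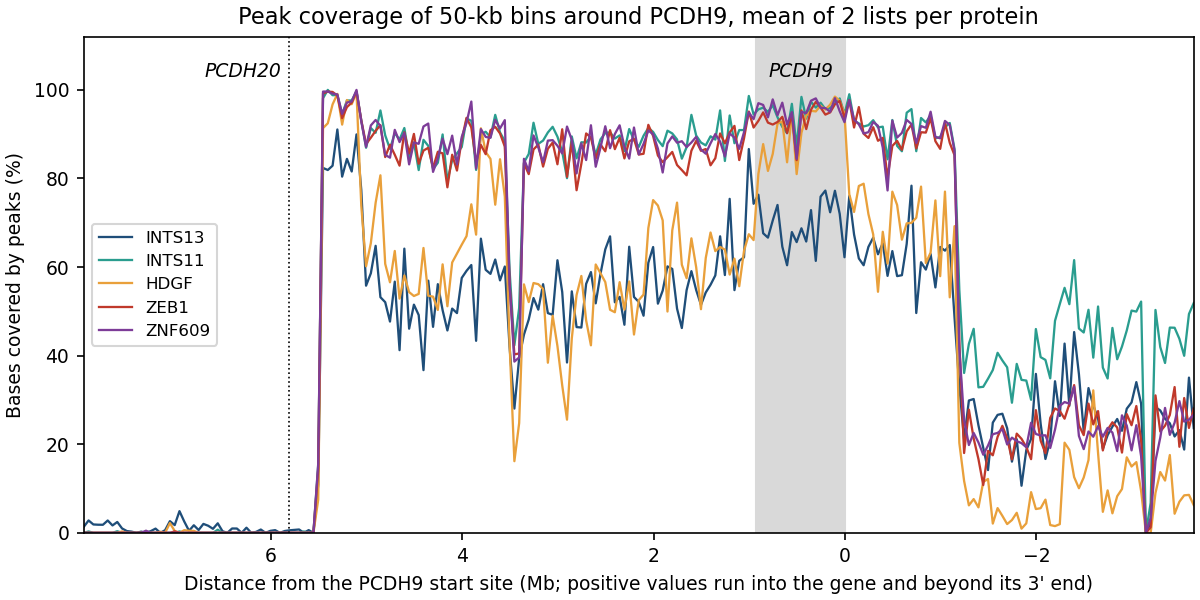
Bases covered by peaks in 50-kb bins, in percent, against the distance from the PCDH9 start site in Mb; each line is the mean of the 2 lists of a protein, the grey band is PCDH9 and the dotted line is PCDH20. Coverage rises for all 5 proteins between PCDH20 and PCDH9 and drops 1170 kb before the start site. In the 500 kb past this drop it stays above the level on the PCDH20 side. The HDGF line stands higher inside the gene than beside it.

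HDGF differed between PCDH9 and the 1 Mb on either side more than the other proteins did, though its high coverage was not limited to the gene. Its peaks covered 93.9% and 88.6% of the gene, and on average 74.1% and 59.0% of the 1 Mb on either side. The difference was 24.7 points ± 6.92 (SD, n = 2) for HDGF, 8.15 ± 0.409 for INTS13, 5.46 ± 0.849 for ZNF609, 5.31 ± 0.406 for ZEB1 and 4.12 ± 2.79 for INTS11. Both HDGF lists, at 19.8 and 29.6 points, lay above the 8 other lists, of which the highest was 8.44. INTS11, ZEB1 and ZNF609 covered 86.4% or more of the flanks in each list, which leaves them little room for a difference. INTS13, with flanks at 55.9% and 67.3%, had that room. For HDGF a step was seen at both ends of the gene. The first 100 kb of the gene were covered over 97.1% and 97.2%, and the 100 kb before the start site over 84.2% and 70.9%. The last 100 kb were covered over 92.2% and 76.8%, and the 100 kb past the 3′ end over 76.0% and 58.7%. At the 3′ end INTS13 went the other way, by -9.08 and -5.29 points. At the lower edge of the stretch HDGF was higher than in the gene: the first 400 kb, chr13:61750001-62150000, were covered over 96.5% and 94.9%. Of the 114 bins of the stretch outside PCDH9, 5 reached the HDGF share of the gene in both lists. All of them lay within these 400 kb. For the other proteins 9 to 14 bins reached their own share of the gene. With 2 lists for each protein, these differences between proteins were not tested.

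The genes most like PCDH9 depended on the measure. By the percentile ranks of peaks per 100 kb over the 10 lists, the closest genes of 100 kb or more were LARP4B, ADD3, MAPKAP1, LHPP and CHD1L, with mean differences between 5.88 and 7.84 percentile points. Their covered shares, between 0.187% and 68.9%, were unlike those of PCDH9, since wide peaks make for few peaks per length. By the covered share itself, a measure added after seeing the data, the closest were TLE4, TBC1D4, TPTEP2-CSNK1E, ENAH and DCT, with mean differences between 9.35 and 26.9 points. TBC1D4 and DCT lie on chromosome 13 as well, at chr13:75283503-75482169 and chr13:94436811-94549406.

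PCDH19, whose loss causes a form of epilepsy in girls, was the member with the next widest set of proteins (chrX:100291644-100410273, minus strand, 119 kb). There were 29 and 34 INTS13 peaks in the gene, 29 and 17 of INTS11, 6 and 4 of ZEB1, 5 and 3 of ZNF609, and 0 in both HDGF lists. INTS13 covered 14.9% and 22.8% of the gene, INTS11 13.04% and 7.32%, ZEB1 1.88% and 1.30%, and ZNF609 1.82% and 0.926%. Reproducible regions were limited to Integrator, with 16 of INTS13 and 4 of INTS11 in the gene. The ZEB1 peaks of the 2 lists did not overlap there, nor did those of ZNF609. The best-ranked peak was that of INTS13 replicate 2 at chrX:100406721-100408471, rank 3692 of 341913, with a fold of 3.40. INTS13 replicate 1 had its own best peak over the same place, at chrX:100406366-100408512, rank 17051 of 416964.

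Coverage of PCDH19 was greatest next to its start site. The first 20 kb of the gene were covered over 42.6% and 54.985% by INTS13, beside 9.28% and 16.3% of the rest. For INTS11 the shares were 35.5% and 19.9%, beside 8.49% and 4.76%, and for ZEB1 7.68% and 7.71%, beside 0.701% and 0%. ZNF609 had 3.58% and 5.49%, beside 1.47% and 0%. All 8 lists with peaks in the gene were thus higher near the start site. The 20 kb before the start site, outside the gene, were covered over 44.0% and 60.1% by INTS13 and 33.0% and 29.5% by INTS11. The 1 Mb before the start site was covered over 38.5% and 50.3% by INTS13, against 6.29% and 8.18% for the 1 Mb past the 3′ end. PCDH19 therefore lay on a slope between a crowded and a sparse part of chromosome X, and the part of this slope in its coverage was not tested.

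**Figure D5:**
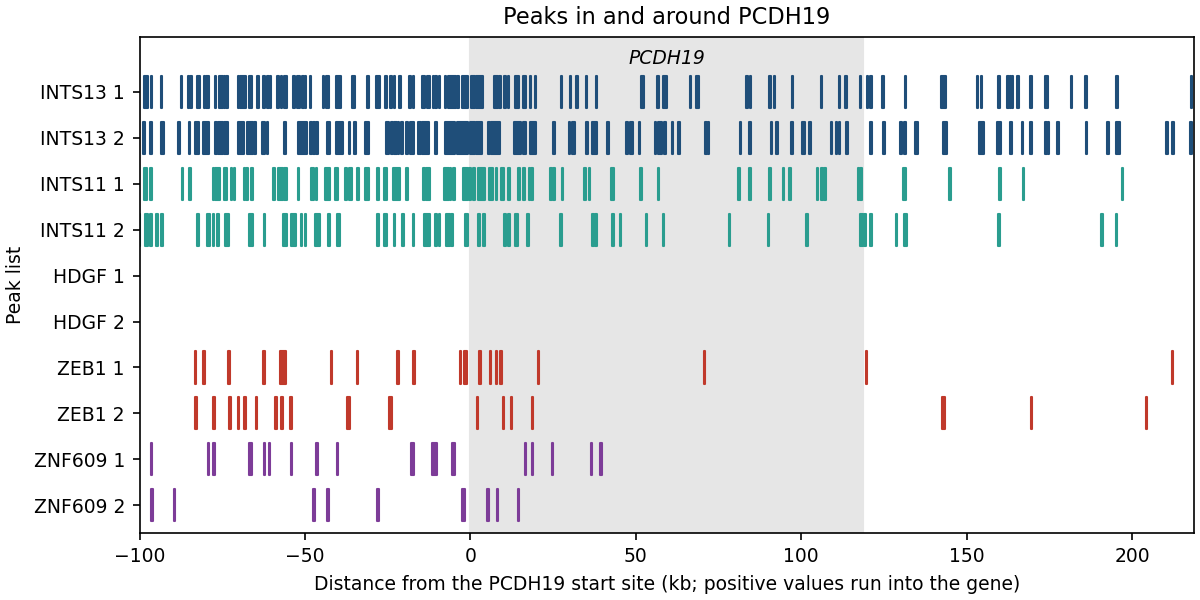
Peaks in and around PCDH19 in the 10 lists, drawn against the distance from the start site in kb; the grey band is the gene, and negative distances lie before the start site. INTS13 and INTS11 peaks are dense up to about the first 20 kb of the gene and sparser beyond, and both HDGF rows are empty.

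PCDH1 carried INTS13 at both ends in each list, and PCDH8 carried it inside the gene in each list but at its start site in replicate 1 alone. The count of PCDH8 among the members with INTS13 at an end thus rests on the peak of replicate 1, which the peak of replicate 2 overlaps inside the gene. PCDH1, an adhesion protein of airway epithelium and a hantavirus receptor, spans 25.3 kb at chr5:141853090-141878410. INTS13 had 11 peaks over 39.8% of the gene in replicate 1 and 7 peaks over 15.0% in replicate 2. The 4 reproducible regions in the gene, and 2 more within 1 kb of its ends, included chr5:141850961-141852864, where the best peak of each list lay, at ranks 40602 and 95691. INTS11 had a reproducible region at chr5:141878926-141879836, beyond the upper end of PCDH1, and 0 peaks in the gene. Within 1 kb of that end lay the peak of replicate 1 alone. The count of PCDH1 among the members with INTS11 at an end thus rests on replicate 1. HDGF replicate 2 had 1 peak, and the ZEB1 and ZNF609 lists had none. PCDH8, known as arcadlin or paraxial protocadherin, is a short gene of 5.75 kb at chr13:52842889-52848640. INTS13 covered 56.3% of it in replicate 1, with a peak of 3301 bp that reached the start site, and 19.6% in replicate 2, with a peak of 1129 bp inside the gene. The other 8 lists had 0 peaks there.

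The remaining members were nearly free of peaks. PCDH10, which binds the WAVE complex, had 1 reproducible INTS13 region, chr4:133151014-133152498, near the lower end of its 59.3 kb. A single INTS11 peak of replicate 1, chr4:133151461-133151793, fell in that region. PCDH17 had 3 INTS13 peaks over 2.17% of its 99.2 kb in replicate 1, the best at chr13:57632604-57634120, and 0 peaks in the other 9 lists. PCDH18, known to bind DAB1, had 1 peak each of INTS13 replicate 1 and INTS11 replicate 2, at chr4:137529762-137530287 and chr4:137531543-137531861. PCDH7, which binds protein phosphatase 1 and SET, is the second longest member at 426 kb (chr4:30720369-31146800), yet it had 1 peak of INTS13 replicate 1 and 3 and 2 peaks of HDGF. Its highest covered share in any list was 0.313%. Of the long members, PCDH7 and PCDH9 thus stood at opposite ends, the latter being covered over 63.7% or more in each list.

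PCDH20 lay just outside the covered stretch. It spans 6.17 kb at chr13:61409685-61415849, and 334 kb separate it from the lower edge. A single peak of INTS13 replicate 1, chr13:61415031-61415602, rank 122335 of 416964, was the only one among the 10 lists. The 1 Mb above PCDH20 was covered over between 47.8% and 66.0%, and the 1 Mb below it over at most 0.693%. PCDH17 and PCDH8 lie further down chromosome 13, and the 1 Mb on either side of them was covered over at most 5.27% in any list. Of the 4 members on this chromosome, PCDH8, PCDH17 and PCDH20 thus lay outside the stretch. PCDH9 lay inside it by construction, since the stretch was drawn outward from that gene.

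Other genes of the family and its partners were counted in the same way. Of PCDH11X, PCDH12 and PCDH15, the remaining non-clustered protocadherins considered, INTS13 had a reproducible region at the ends of PCDH12 and in the body of all 3. INTS11 had a reproducible region in the body of PCDH11X and HDGF in that of PCDH15, while ZEB1 and ZNF609 had none. PCDH11X, another delta-1 gene and 844 kb long, was covered over 1.05% and 1.46% by INTS13 and had 0 HDGF and 0 ZEB1 peaks. PCDH15, a gene of 1825 kb for a protein of hair cell tip links, was covered over 0.736% and 0.762% by INTS13. Of 18 classical cadherins, INTS13 was at the ends of 6, among them CDH1 and CDH2 of epithelial and neural junctions, INTS11 and HDGF at those of CDH15, and ZEB1 and ZNF609 at those of none. Of 15 large and atypical cadherins, INTS13 was at 9, INTS11 and HDGF at CELSR2 and CELSR3, ZEB1 at CELSR2 and ZNF609 at 0. Of 17 genes for cytoplasmic partners, INTS13 was at 11, INTS11 at 5, HDGF at 5, ZEB1 at DAB1 and TAOK2, and ZNF609 at 0. Of all protein-coding genes, 63.7% had a reproducible INTS13 region at an end and 73.2% had one in the body. With INTS13, the 6 of 18 lay below the share at ends, and the 9 of 15 and 11 of 17 lay near it. At an end, 17.4% of all genes had a region of INTS11, 22.2% one of HDGF, 3.78% one of ZEB1 and 1.57% one of ZNF609. Set beside these shares, the counts are descriptions, and no list was tested.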

How the data were processed

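Chromatin immunoprecipitation libraries of 5 proteins, 2 each, were used as 10 deposited peak lists. Per the submitters' processing notes, FastQC, Trimmomatic, Bowtie, Picard and MACS2 were used; their versions, the control and the thresholds, not given in the sources used here, are unknown. Each library has its own list. Per peak, the deposited lists give a fold (the authors' linear ratio over background), -log10 p and -log10 q, a score of 10 times the -log10 q and the summit position. Gaps in the deposited peak numbers show that some peaks had been left out. Depth is unknown, so no counting error is given. Contig names are those of GRCh38, which was taken as the build.

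Peaks on chromosomes 1 to 22 and X were intersected with RefSeq genes (GRCh38.p14) in Python 3.11.15 with NumPy 2.4.6 and pandas 2.3.3; the functions were tested on simulated data. Gene ends, windows of 1 kb on either side, include 3′ ends. Covered share is the share of a gene's bases under peaks. All 9 members are named; genes like PCDH9 and the best peak per list were named by rule. Members and lists were chosen with earlier results of these data known. Measures of coverage and of the surrounding stretch, and their thresholds, were added after seeing the data. Alternatives were a -log10 q of 5, the 10000 strongest peaks, other windows and overlaps, summit placement and single lists.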

Additional observations from a re-analysis of the deposited data

How the results depend on the processing

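No paired analysis was possible because the results are counts and shares with no test in which a block could enter; whether the replicate numbers pair the libraries is not known. With a -log10 q of 5 or more, members with INTS13 numbered 2 at gene ends and 2 in the gene, and with INTS11 1 and 1. With the 10000 strongest peaks each of these 4 counts was 1. The shares of all protein-coding genes under these settings were not counted. The PCDH9 covered share was 60.9% for INTS13 and 86.9% for HDGF with the 10000 strongest peaks, and 85.7% for HDGF with a -log10 q of 5 or more. The number of protein-coding genes covered over 50% or more in all lists was 2 with a -log10 q of 5 or more, 3 with the 10000 strongest peaks, 54 at a share of 25% and 1 at 75%, where PCDH9 is no longer among them because of INTS13 replicate 1. Windows of 500 bp and 5 kb, an overlap of 50% of the shorter peak and placement by summits left every count of members, and every count of PCDH9 regions, within 1.5 times its value. With the window of 500 bp the INTS11 count at gene ends was 2, without PCDH1. Single lists gave, for members in the gene, 5 to 9 with INTS13, 3 to 3 with INTS11, 2 to 3 with HDGF, 2 to 2 with ZEB1 and 2 to 2 with ZNF609, and for members at gene ends 3 to 6, 3 to 3, 1 to 1, 1 to 2 and 1 to 1. In replicates 1 and 2, 85.0% and 79.5% of all protein-coding genes had an INTS13 peak in the gene. INTS11 had one in 65.8% and 42.2%, HDGF in 61.5% and 57.4%, ZEB1 in 27.6% and 21.8%, and ZNF609 in 20.5% and 12.1%. At gene ends INTS13 had a peak for 79.5% and 68.1%, and INTS11 for 49.995% and 22.2%. HDGF had one there for 38.5% and 34.6%, ZEB1 for 13.3% and 8.48%, and ZNF609 for 6.999% and 3.43%. The 3 INTS11 members were not the same in both lists. At gene ends they included PCDH1 in replicate 1 and PCDH18 in replicate 2. In the gene they included PCDH10 in replicate 1 and PCDH18 in replicate 2. PCDH9 and PCDH19 counted in both lists. In single lists PCDH9 had 265 to 414 INTS13 peaks, 32 to 118 of INTS11 and 120 to 223 of HDGF. It had 82 to 122 of ZEB1 and 59 to 95 of ZNF609. Leaving out 1 of the 10 lists gave 5 to 24 genes covered over 50% or more. Each group had 2 lists, and the depth of the libraries is unknown; a gene at 0 had no listed peak, which does not show that the protein was absent.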

Other observations

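PCDH9 contains 5 long non-coding RNA genes, 4 of them named as its antisense transcripts. PCDH9-AS1, at chr13:66303871-66323561 by the 3′ end, was covered over between 61.3% and 98.04% of its length, with a median of 89.3% over the 10 lists. PCDH9-AS2, at chr13:66825169-66915031, had a median of 96.1%, PCDH9-AS3 89.9% and PCDH9-AS4 93.7%. LOC105370247, at chr13:66560385-66660145, had a median of 90.8%. Each of the 5 had peaks of all 10 lists. Peaks carry no strand, so the coverage of PCDH9 and of its antisense genes cannot be told apart. The U7 pseudogene RNU7-87P, at chr13:66630715-66630776, lay under a peak in 9 lists.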
